A study of Mus musculus with 8 samples.

Results

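AMP-activated protein kinase (AMPK) is a heterotrimer of a catalytic alpha, a scaffolding beta and a nucleotide-binding gamma subunit, and its main upstream kinase, LKB1, works in a complex with the pseudokinase STRAD and the scaffold MO25. The 10 genes described here encode the 7 AMPK subunits (*Prkaa1*, *Prkaa2*, *Prkab1*, *Prkab2*, *Prkag1*, *Prkag2* and *Prkag3*) and the LKB1 complex (*Stk11*, which encodes LKB1, *Strada* and *Cab39*, which encodes MO25alpha). They were chosen by name, and each of the 10 matched exactly 1 of the 32390 rows of the table and passed the filter on low counts. The alpha subunit carries the kinase domain and the activation-loop threonine that LKB1 phosphorylates. The beta subunit binds glycogen and holds the trimer together, and the gamma subunit senses AMP and ADP. In muscle AMPK is known as the energy sensor that is switched on by contraction, and the gamma3 isoform is known to be largely restricted to fast glycolytic skeletal muscle, where it pairs with alpha2 and beta2.

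The samples were gastrocnemius muscles of 4 *Nox4* fl/fl control mice and of 4 MckCre:*Nox4* fl/fl (NOX4-deficient) mice, all males on a C57BL/6 background, 21 months old and fed chow, so that both groups carried the floxed alleles and only the NOX4-deficient mice carried Cre. The muscle creatine kinase promoter drives Cre chiefly in skeletal muscle and less so in the heart, so that vessels, nerve, fat and immune cells of the tissue are not its targets. Whole muscle was homogenized, and in such bulk samples fewer cells of a type and less RNA per cell cannot be told apart. The labels place all 8 samples in batch 1. Each sample came from a different mouse, and the p-values measure the spread between these mice.

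The libraries held from 16350548 to 19804661 counts on genes in control and from 16628305 to 19216987 in NOX4-deficient muscle. Reads counted on *Nox4* itself numbered 85, 48, 35 and 70 in control mice 1 to 4 and 29, 43, 42 and 37 in NOX4-deficient mice 1 to 4, so that the groups overlapped and the targeted gene was not called, a call being an adjusted p below 0.05 with a log2 fold change larger than 0.5 in size (log2 fold change -0.65, 95% interval -1.28 to -0.01, edgeR adjusted p = 0.207). The *Nox4* counts therefore do not check the genotype labels, since counts per gene do not separate the deleted exons from the rest, and NOX4-deficient is used here as the name of the labelled genotype. The 6 skeletal muscle markers were abundant in every library, with a summed level from 115128 to 148134 CPM (counts divided by the scaled total of the library). None of the 8 slow-fiber, 11 fast-fiber, 6 adipocyte, 5 immune cell, 5 endothelial, 6 fibroblast and tendon or 4 Schwann cell markers tested was called between genotypes. Both hemoglobin genes in the table, *Hba-a1* and *Hbb-bs*, were called higher, with summed levels of 46.6 to 50.9 CPM in control and 70.4 to 154 CPM in NOX4-deficient muscle, and the part of blood in the results below was not tested. Replicates 1 and 3 of each genotype lay above replicates 2 and 4 on principal component 2, which held 19.1% of the variance.

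*Prkag3*, which encodes gamma3, was the AMPK subunit mRNA that differed most between genotypes. Control mice 1 to 4 had 107, 121, 143 and 119 CPM, and NOX4-deficient mice 1 to 4 had 328, 359.6, 279.7 and 268 CPM (CPM scaled by the TMM method, here and below). The lowest NOX4-deficient mouse lay well above the highest control mouse. The control mean was 123 ± 14.9 CPM and the NOX4-deficient mean 309 ± 42.6 CPM (SD, n = 4 each), a 2.52-fold rise (95% interval 2.08 to 3.04; log2 fold change 1.33, standard error 0.13, adjusted p = 1.08e-04 by the edgeR quasi-likelihood test, Benjamini-Hochberg over 12725 rows). Leaving out any of the 8 libraries kept the difference between 1.25 and 1.43 on the log2 scale.

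The other gamma subunit genes were not called. *Prkag1*, which encodes the widely expressed gamma1, had 16.5, 15.0, 16.1 and 12.6 CPM in control replicates 1 to 4 and 19.0, 12.9, 20.2 and 16.1 CPM in NOX4-deficient replicates 1 to 4. Its groups overlapped, and its log2 fold change was 0.18 (95% interval -0.15 to 0.51, edgeR adjusted p = 0.528). *Prkag2*, which encodes the gamma2 subunit known from the heart, had 12.99, 11.98, 9.46 and 15.0 CPM in control and 12.3, 9.80, 10.3 and 13.6 CPM in NOX4-deficient replicates 1 to 4. The highest and the lowest of these 8 values were both in control mice, and the log2 fold change was -0.11 (95% interval -0.46 to 0.25, edgeR adjusted p = 0.749). In GENCODE release M21, 43.7% of the exon length of *Prkag1* lies opposite an antisense gene, B130046B21Rik, and the unstranded reads there cannot be assigned to a strand. B130046B21Rik had 12 counts over all libraries, against 2342 for *Prkag1*. *Prkag2* has several promoters, and counts per gene do not separate its long and short forms.

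**Figure D1:**
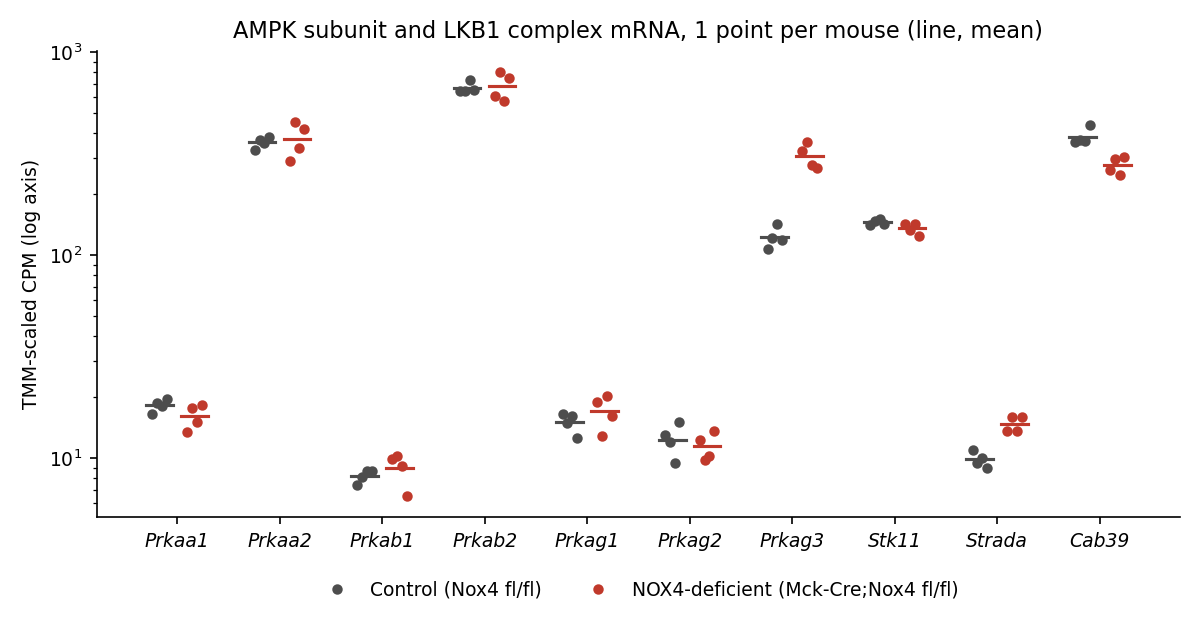
TMM-scaled CPM (log axis) of the 10 genes, with 1 point for each mouse and a line at the mean of the 4 control (gray) and 4 NOX4-deficient (red) mice. The groups are apart for *Prkag3* and *Strada*, higher in NOX4-deficient muscle, and for *Cab39*, lower, and they overlap for the other 7 genes.

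Because the members differed in direction, the sequence before their transcription start is shown for the 3 genes with an adjusted p under 0.05 and, beside *Prkag3*, for its paralog *Prkag1*. The windows hold 250 bases before and 50 after the start, are taken from RefSeq on the GRCm38.p6 build, and run 5′ to 3′ along the gene's strand. They lie at chr1:74748906-74749205 on the minus strand for *Prkag3*, chr15:98831459-98831758 on the minus strand for *Prkag1*, chr11:106193554-106193853 on the minus strand for *Strada* and chr1:85793191-85793490 on the plus strand for *Cab39*. Capitals mark matches to CANNTG, the E-box letters that myogenic and circadian basic helix-loop-helix factors are known to bind.
Prkag3: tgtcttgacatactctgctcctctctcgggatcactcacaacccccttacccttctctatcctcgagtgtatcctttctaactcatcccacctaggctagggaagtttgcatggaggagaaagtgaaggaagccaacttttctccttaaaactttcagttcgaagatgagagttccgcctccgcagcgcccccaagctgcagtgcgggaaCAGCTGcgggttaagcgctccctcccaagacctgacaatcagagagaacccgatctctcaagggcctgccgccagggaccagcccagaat
Prkag1: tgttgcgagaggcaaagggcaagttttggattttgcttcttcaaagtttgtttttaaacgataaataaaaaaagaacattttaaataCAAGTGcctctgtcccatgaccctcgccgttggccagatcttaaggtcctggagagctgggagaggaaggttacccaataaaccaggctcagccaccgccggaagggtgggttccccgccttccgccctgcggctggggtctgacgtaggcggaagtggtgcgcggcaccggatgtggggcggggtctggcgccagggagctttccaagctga
Strada: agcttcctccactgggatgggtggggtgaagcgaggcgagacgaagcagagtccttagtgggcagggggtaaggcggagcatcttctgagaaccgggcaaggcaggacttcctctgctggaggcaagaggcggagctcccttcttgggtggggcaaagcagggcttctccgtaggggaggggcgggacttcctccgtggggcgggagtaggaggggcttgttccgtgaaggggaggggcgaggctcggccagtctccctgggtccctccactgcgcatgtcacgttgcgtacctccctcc
Cab39: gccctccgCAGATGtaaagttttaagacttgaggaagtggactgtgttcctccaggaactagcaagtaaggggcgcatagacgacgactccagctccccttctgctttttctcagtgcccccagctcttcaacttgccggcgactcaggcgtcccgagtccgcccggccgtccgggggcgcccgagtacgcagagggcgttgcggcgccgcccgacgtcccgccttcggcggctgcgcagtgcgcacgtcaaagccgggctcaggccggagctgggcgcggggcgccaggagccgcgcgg
All 10 members matched a window, with 3 for *Prkag2*. An E-box match stood in at least 1 window of 5 members (*Prkag3*, *Prkag1*, *Prkag2*, *Stk11* and *Cab39*). That was 7 of the 12 windows of all 10 members, against 64.2% of the 12506 windows of tested genes and 72.3% of all 32851 windows. The match in *Prkag3* is CAGCTG, 40 bases before the start, and *Strada* has none. The letters TGACNNNGC, the core of the antioxidant response element that NFE2L2 is known to bind, were found on neither strand in the 12 windows of the members, against 12.4% of all windows. The MEF2 letters, CTA and TAG separated by any 4 bases, were also not found, against 3.69% of all windows. These are matches of letters in short windows and are no measure of binding.

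With *Prkag3* higher and its paralogs not called, the composition of the gamma family differed between genotypes. Of the reads counted on the 3 gamma genes, *Prkag3* held 78.4%, 81.8%, 84.8% and 81.2% in control replicates 1 to 4 and 91.3%, 94.1%, 90.2% and 90.03% in NOX4-deficient replicates 1 to 4. The gamma3 share was 81.6% ± 2.63 (SD, n = 4) in control and 91.4% ± 1.87 (SD, n = 4) in NOX4-deficient muscle, and the groups did not overlap. The difference of 9.82 percentage points had p = 0.0286 by an exact two-sided permutation test, the smallest p that 4 mice against 4 allow, and p = 0.0357 after Benjamini-Hochberg adjustment over the 5 shares compared. The gamma1 share was 10.1% ± 1.48 (SD, n = 4) in control and 5.14% ± 1.31 (SD, n = 4) in NOX4-deficient muscle, and the gamma2 share was 8.36% ± 2.04 (SD, n = 4) and 3.47% ± 0.823 (SD, n = 4). Both lay lower in every NOX4-deficient mouse than in any control mouse, with the same exact permutation p of 0.0286 each, and for gamma2 the exact p was 0.0571 when any NOX4-deficient replicate was left out. The 3 gamma shares add up to the whole and are not independent, and the lower shares of gamma1 and gamma2 stood beside CPM values that overlapped between genotypes.

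A longer transcript yields more reads, so shares of transcripts were also computed per kilobase of exon. On that scale *Prkag3* held 78.9% ± 2.65 (SD, n = 4) of gamma mRNA in control and 89.5% ± 2.38 (SD, n = 4) in NOX4-deficient muscle, *Prkag1* 16.5% ± 2.28 and 8.52% ± 2.11, and *Prkag2* 4.60% ± 1.16 and 1.93% ± 0.459 (SD, n = 4 each). Gamma3 was the main gamma mRNA in both genotypes, and *Prkag1* ranked above *Prkag2* per kilobase.

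The catalytic family was nearly all alpha2. *Prkaa2*, which encodes the alpha2 subunit that predominates in muscle, had 329, 369.5, 358 and 383 CPM in control replicates 1 to 4 and 292, 454, 336 and 421 CPM in NOX4-deficient replicates 1 to 4. NOX4-deficient replicates 2 and 4 lay above every control mouse and replicate 1 lay below every control mouse, so that the groups overlapped (log2 fold change 0.06, 95% interval -0.23 to 0.36, edgeR adjusted p = 0.831). *Prkaa1*, which encodes the widely expressed alpha1, had 16.5, 18.8, 18.0 and 19.5 CPM in control and 13.5, 17.7, 15.1 and 18.4 CPM in NOX4-deficient replicates 1 to 4, also with overlap (log2 fold change -0.17, 95% interval -0.44 to 0.10, edgeR adjusted p = 0.459). *Prkaa1* was lower in NOX4-deficient replicates 1 and 3 than in 2 and 4, as *Prkaa2* was.

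The alpha2 share varied little between mice. *Prkaa2* held between 95.16% and 95.21% of alpha reads in the 4 control mice (mean 95.2%, SD 0.0248 percentage points) and between 95.6% and 96.2% in the 4 NOX4-deficient mice (mean 95.8%, SD 0.295). The groups did not overlap, and the difference of 0.646 percentage points had an exact two-sided permutation p of 0.0286 (0.0357 adjusted over the 5 shares). Neither alpha gene was called by itself. *Prkaa1* had 276 to 375 counts in the control libraries, and counting error alone would spread the share by more than the control SD. The narrow spread of the control mice is therefore not taken as a property of the mice. Per kilobase of exon the alpha2 share was 92.0% in control and 93.1% in NOX4-deficient muscle.

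The beta family was almost wholly beta2. *Prkab2*, the beta isoform abundant in skeletal muscle, had 642, 647, 734 and 653 CPM in control replicates 1 to 4 and 606, 800.3, 576 and 747 CPM in NOX4-deficient replicates 1 to 4. NOX4-deficient replicates 2 and 4 were above all control mice and replicates 1 and 3 below them, and the log2 fold change was 0.03 (95% interval -0.24 to 0.29, edgeR adjusted p = 0.925). *Prkab1*, which encodes beta1, ranged from 7.37 to 8.68 CPM in control and from 6.503 to 10.3 CPM in NOX4-deficient muscle, where replicate 4 was the lowest of all 8 mice and the other 3 exceeded every control mouse (log2 fold change 0.13, 95% interval -0.22 to 0.48, edgeR adjusted p = 0.683). The beta2 share of beta reads was 98.8% ± 0.0785 (SD, n = 4) in control and 98.7% ± 0.340 (SD, n = 4) in NOX4-deficient muscle, with overlap (difference -0.114 percentage points, exact two-sided permutation p = 0.514).

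**Figure D2:**
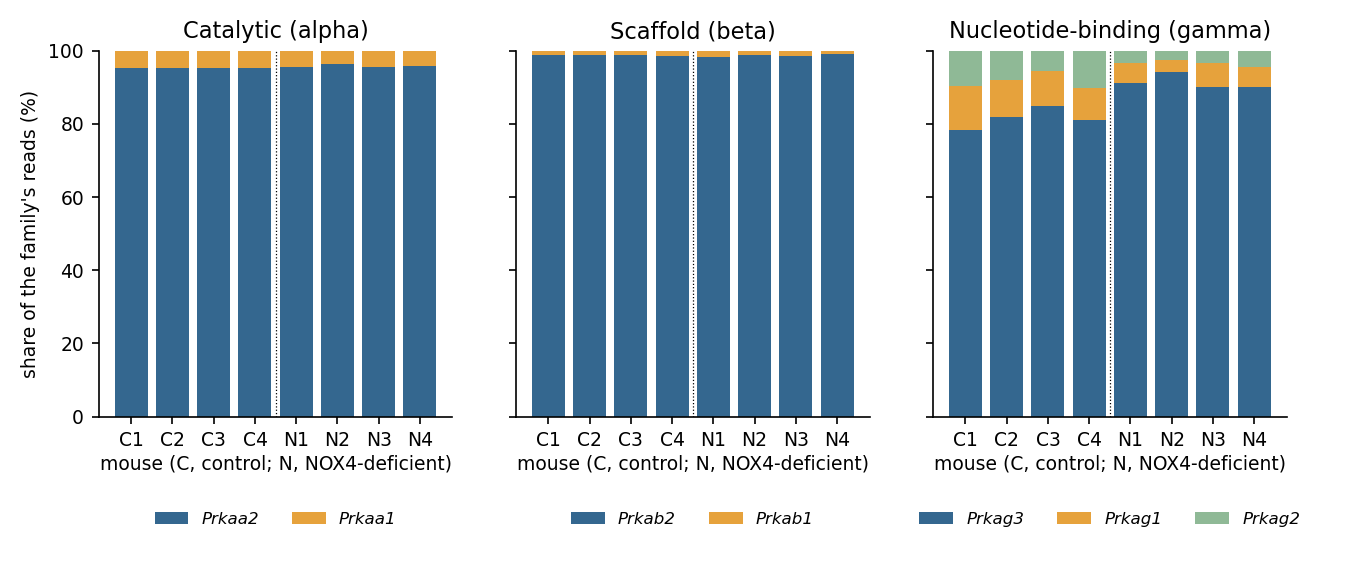
Share of each family's reads (percent) held by each isoform in the 4 control mice (C1 to C4) and the 4 NOX4-deficient mice (N1 to N4), with panels for the alpha, beta and gamma subunits. Alpha2 and beta2 fill over 95% of their families in all 8 mice, and the gamma3 share goes from 78.4% to 84.8% in control to between 90.03% and 94.1% in NOX4-deficient muscle.

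The gamma family as a whole stood higher against its partners. Summed per kilobase of exon, the gamma genes stood at 42.2 ± 3.91 CPM per kb (SD, n = 4) in control and 93.5 ± 10.7 CPM per kb (SD, n = 4) in NOX4-deficient muscle, while the alpha genes stood at 49.0 ± 3.19 and 50.6 ± 9.83 CPM per kb and the beta genes at 134 ± 8.65 and 137 ± 21.2 CPM per kb (SD, n = 4 each). The ratio of gamma to alpha mRNA was 0.865, 0.828, 0.979 and 0.774 in control replicates 1 to 4 and 2.52, 1.73, 1.91 and 1.45 in NOX4-deficient replicates 1 to 4. With exon-union lengths, gamma mRNA was below alpha mRNA in every control mouse and above it in every NOX4-deficient mouse. Which side of 1 the ratio takes depends on the lengths used. The longest transcript is shorter than the exon union for *Prkag3* (2832 against 3682 bases) and *Prkag1* (1652 against 2175), but not for the alpha genes. Longest-transcript lengths therefore raise the gamma to alpha ratio, and gamma need not then lie below alpha in control muscle. The ratio of beta to alpha mRNA ranged from 2.51 to 3.01 in control and from 2.56 to 3.09 in NOX4-deficient muscle, and the groups overlapped. The spread of *Prkaa2* and *Prkab2* was wider in NOX4-deficient muscle (coefficients of variation 19.9% and 15.9%, against 6.46% and 6.49% in control), while the SD of the beta to alpha ratio was 0.241 in control and 0.245 in NOX4-deficient mice.

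In the LKB1 complex the partners of the kinase differed in opposite directions, *Strada* higher and *Cab39* lower, and only *Strada* met both thresholds. *Strada*, which encodes the STRADalpha pseudokinase that activates LKB1, had 11.02, 9.51, 10.1 and 8.94 CPM in control replicates 1 to 4 and 13.6, 15.97, 13.6 and 15.9 CPM in NOX4-deficient replicates 1 to 4. All 4 NOX4-deficient mice lay above all control mice, and the mean rose 1.49-fold (95% interval 1.24 to 1.80; log2 fold change 0.58 with a standard error of 0.12, edgeR adjusted p = 0.0159). *Cab39*, which encodes the MO25alpha scaffold that stabilizes LKB1 and STRAD, had 362, 369, 365 and 437 CPM in control and 263, 298, 248 and 305 CPM in NOX4-deficient replicates 1 to 4. All 4 NOX4-deficient mice lay below all control mice (log2 fold change -0.46, 95% interval -0.69 to -0.23, standard error 0.11, edgeR adjusted p = 0.0237), a change under the minimum of 0.5 set for a call. Control replicate 4 had the most *Cab39*, and without it the log2 fold change was -0.39 (edgeR adjusted p = 0.0645). The adjusted p also exceeded 0.05 without control replicate 3 (0.0521) and without NOX4-deficient replicate 1 (0.0612) or 3 (0.0712).

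*Stk11*, the kinase itself, had 141, 147, 151 and 143 CPM in control and 142, 134, 143 and 124 CPM in NOX4-deficient replicates 1 to 4, with the narrowest spread of the 10 genes in both genotypes (coefficients of variation 3.12% and 6.53%). Its groups overlapped, and the log2 fold change was -0.10 (95% interval -0.30 to 0.09, edgeR adjusted p = 0.544). Per kilobase of exon, *Strada* had 0.0558 ± 0.00569 (SD, n = 4) of the level of *Stk11* in control and 0.0901 ± 0.0138 (SD, n = 4) in NOX4-deficient muscle. For *Cab39* the ratio was 1.70 ± 0.188 and 1.34 ± 0.218 (SD, n = 4 each), and here the groups overlapped, since NOX4-deficient replicate 4 reached 1.59 and control replicate 3 stood at 1.56. The paralogs of these partners were measured too. *Stradb* had a log2 fold change of 0.25 with groups that did not overlap (edgeR adjusted p = 0.141), and *Cab39l* had -0.04 (edgeR adjusted p = 0.891). Mean levels of *Stradb* were 100 (control) and 120 CPM (NOX4-deficient), against 9.88 and 14.8 CPM for *Strada*. The rise of *Strada* and its ratio to *Stk11* therefore concern the less abundant of these STRAD paralogs by CPM. In GENCODE release M21, 2.84% of the exon length of *Strada* is shared with *Ccdc47* on the same strand, which had 21134 counts over all libraries against 1801 for *Strada*. How reads in the shared stretch were assigned was not tested, and the *Strada* value is uncertain to that extent. For *Stk11*, 5.07% of the exon length lies opposite *Cbarp*, which had 191 counts against 20655.

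**Figure D3:**
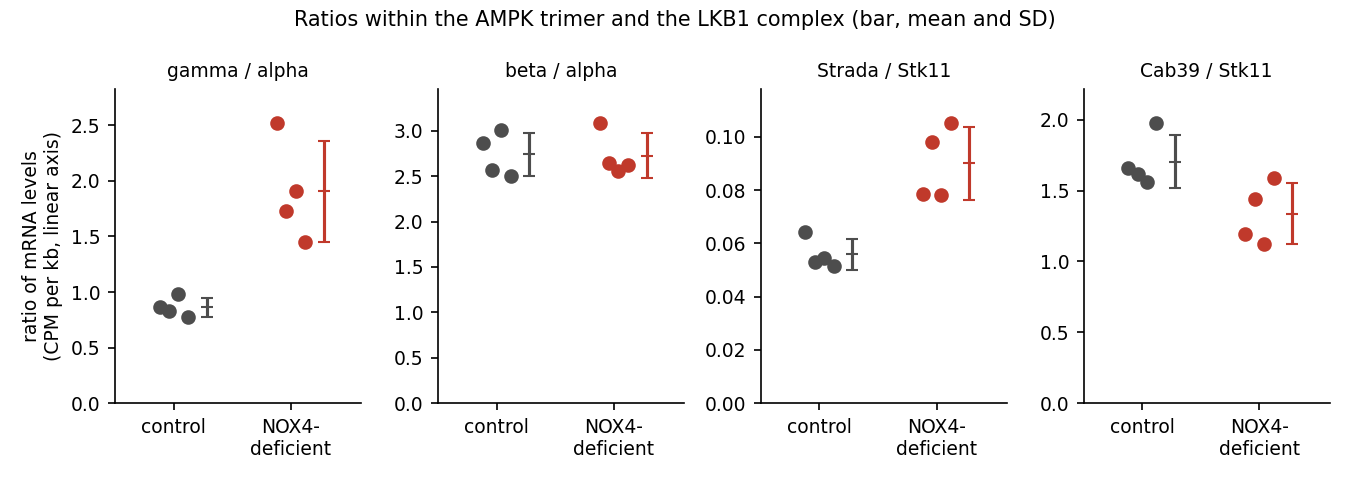
Ratios of mRNA levels (CPM per kb of exon, linear axes from 0) in each mouse, with the mean and SD beside the points, for the summed gamma over the summed alpha genes, beta over alpha, *Strada* over *Stk11* and *Cab39* over *Stk11*. The gamma to alpha ratio is 0.861 on average in control and 1.90 in NOX4-deficient mice without overlap, and the beta to alpha ratio is 2.74 and 2.73.

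By both thresholds 2 of the 10 members were called, both higher, where 6.16% of all 12725 rows were called in either direction and 2.68% were called higher. Without the minimum fold change, *Cab39* was the third, where 7.75% of all rows passed. The groups did not overlap in 3 members, against 16.2% of all rows. In 2 members the NOX4-deficient mice were all higher, against 7.2% of all rows, and in 1 all lower, against 8.97%. The median log2 fold change was 0.05 over the members and 0.01 over all rows. *Prkag3* and *Strada* were called in all 17 alternative fits (other scalings, filters and tools, the replicate number as a block, a term that split odd from even replicates, and each library left out in turn), with adjusted p-values of at most 0.00116 and 0.0476.

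**Figure D4:**
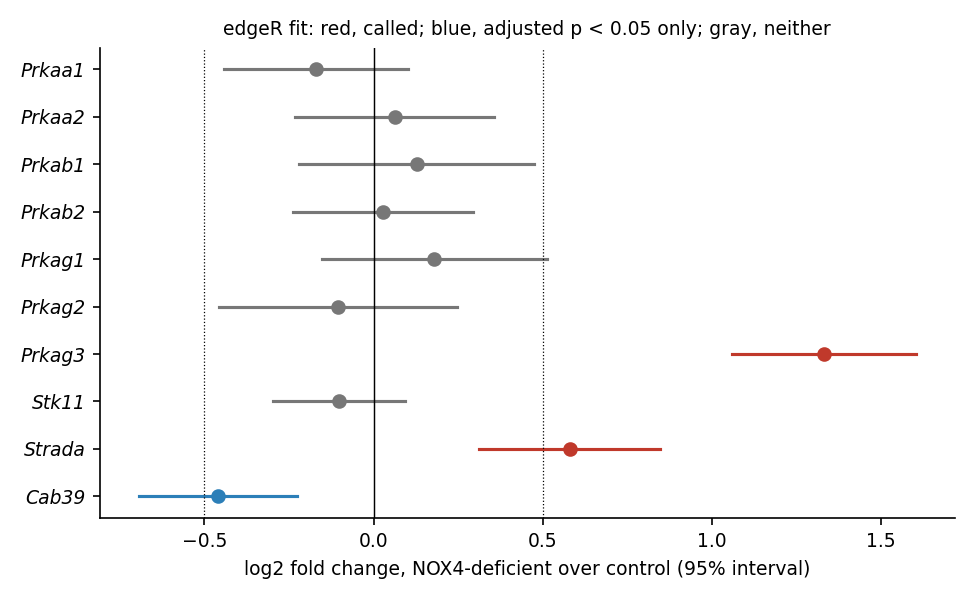
Log2 fold change of each member (point) with its 95% interval (line) from edgeR's quasi-likelihood fit, NOX4-deficient over control, with dotted lines at the minimum of 0.5 in each direction. *Prkag3* (1.33) and *Strada* (0.58) are called, *Cab39* (-0.46) has an adjusted p under 0.05 only, and the intervals of the other 7 include 0.

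Among the 10 genes the levels per kilobase of exon ran over a wide range. In control muscle *Prkab2* was highest at 131 ± 8.53 CPM per kb (SD, n = 4), followed by *Cab39* (54.1 ± 5.09), *Prkaa2* (45.1 ± 2.92), *Prkag3* (33.3 ± 4.05) and *Stk11* (31.8 ± 0.991). *Prkag1*, *Prkaa1*, *Prkab1*, *Prkag2* and *Strada* followed, from 6.92 ± 0.820 down to 1.77 ± 0.159 CPM per kb. The ranges of neighbors in this order overlapped for *Prkag3* and *Stk11* and for *Prkag2* and *Strada*. In NOX4-deficient muscle *Prkag3*, at 83.9 ± 11.6 CPM per kb, moved from the fourth to the second place, above *Prkaa2* (47.1 ± 9.37) and *Cab39* (39.4 ± 3.90), whose ranges overlapped each other, and *Strada* (2.65 ± 0.242) stood above *Prkag2* (1.77 ± 0.273; SD, n = 4 each).

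For each called member, the genes with the most similar course over the 8 libraries were sought among 6944 genes with a mean of at least 10 CPM, as the root-mean-square difference of log2 CPM after each gene was set relative to its own control mean. *Pdp1*, which encodes the catalytic subunit of pyruvate dehydrogenase phosphatase, was nearest to *Prkag3* with a difference of 0.063, and went from 49.6 ± 6.03 to 123 ± 21.6 CPM (SD, n = 4 each). The next were 2310015D24Rik (0.21), *Mib1* (0.22), *Mrtfa* (0.23) and *Sh3rf2* (0.24). For *Strada* the nearest was *Eef2k* (0.077), which encodes elongation factor 2 kinase, followed by *Sparcl1* (0.10), *Znf687* (0.11), *Aptx* (0.12) and *Extl3* (0.12). A difference between genotypes of like size enters this measure directly.

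The rest of the pathway was read from lists of upstream regulators, AMPK-related kinases, AMPK substrates, folliculin with the MiT transcription factors, and enzymes of adenine nucleotide balance. Of 71 genes listed, 67 were tested, of which 3 were called higher and 8 lower, where 2.68% and 3.48% of all rows were called higher and lower. The median log2 fold change was -0.02, with 32 genes above and 35 below 0. Among 12 upstream regulators only *Ppp2ca*, which encodes a catalytic subunit of protein phosphatase 2A, was called. It had 241, 252, 222 and 238 CPM in control and 164, 159, 156 and 177 CPM in NOX4-deficient replicates 1 to 4, all lower (log2 fold change -0.54, edgeR adjusted p = 0.00496). *Camkk2*, which encodes the calcium-dependent AMPK kinase, had a log2 fold change of 0.03 at 2.66 ± 0.608 CPM in control, where a small difference was not detectable. *Tab1*, which encodes a partner of the kinase TAK1, had groups that did not overlap and a log2 fold change of 0.50 (edgeR adjusted p = 0.0544).

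Among the 11 AMPK-related kinases tested, which LKB1 also phosphorylates, *Nuak1* was called lower. It had 44.3, 44.8, 33.8 and 43.5 CPM in control and 21.9, 23.04, 23.4 and 30.2 CPM in NOX4-deficient replicates 1 to 4 (log2 fold change -0.76, edgeR adjusted p = 0.00603). The salt-inducible kinase genes *Sik1*, *Sik2* and *Sik3* had log2 fold changes of -0.86, -0.75 and -0.28, and none was called (edgeR adjusted p = 0.0697, 0.280 and 0.161). DESeq2 and pydeseq2 called *Sik1*, as did edgeR without NOX4-deficient replicate 1.

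Of the 24 substrates tested, 4 were called lower and 2 higher, with a median log2 fold change of 0.03. *Tbc1d1*, which encodes the Rab GTPase-activating protein through which AMPK acts on GLUT4 traffic, ranged from 139 to 176 CPM in control and from 58.7 to 96.6 CPM in NOX4-deficient muscle (log2 fold change -1.04). *Hdac4*, which encodes a class IIa histone deacetylase, ranged from 72.8 to 95.1 and from 31.3 to 48.1 CPM (-1.01). *Ulk1*, the autophagy-initiating kinase, ranged from 142 to 196 and from 81.9 to 92.9 CPM (-0.86). In these 3 genes no NOX4-deficient mouse reached the lowest control mouse (edgeR adjusted p = 0.00202, 0.00203 and 0.00127). *Acacb*, which encodes the mitochondrial acetyl-CoA carboxylase, had a log2 fold change of -0.56 (edgeR adjusted p = 0.0194). *Srebf1*, a transcription factor of lipid synthesis, ranged from 15.2 to 20.2 CPM in control and from 25.4 to 45.1 CPM in NOX4-deficient muscle (0.97, edgeR adjusted p = 0.00591), and *Eef2k* lay at the threshold (0.50, edgeR adjusted p = 0.0149). *Ppargc1a* (-1.39) and *Pfkfb3* (1.46) had larger log2 fold changes that were not called (edgeR adjusted p = 0.0855 and 0.0727), with wide spreads between mice. Both were called by DESeq2, by pydeseq2 and by the non-robust edgeR fit.

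*Flcn*, which encodes folliculin, was the called gene of its list of 5. It ranged from 77.9 to 96.3 CPM in control and from 44.3 to 61.3 CPM in NOX4-deficient muscle (log2 fold change -0.64, edgeR adjusted p = 0.0113), while *Tfeb*, *Tfe3* and *Mitf* lay between -0.19 and -0.08 and were not called. Of the 15 genes of adenine nucleotide balance tested, the AMP deaminase gene *Ampd3* was called lower (log2 fold change -0.83, edgeR adjusted p = 0.0222) and *Ampd2* higher (0.67, edgeR adjusted p = 0.0481). *Ampd1*, which encodes the muscle AMP deaminase, averaged 1108 ± 112 CPM in control mice and 1437 ± 98.8 CPM in NOX4-deficient mice (SD, n = 4 each). Its groups were apart, with a log2 fold change of 0.38 (edgeR adjusted p = 0.0552). *Ak1*, the main cytosolic adenylate kinase of muscle, had a log2 fold change of 0.33 (edgeR adjusted p = 0.200) with overlap.

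Of the 11 calls in the lists, 4 were lost when single libraries were left out. *Acacb* was not called without control replicate 2 (log2 fold change -0.52, edgeR adjusted p = 0.0579) or 4 (-0.54), or without NOX4-deficient replicate 1 (-0.50) or 3 (-0.48). *Ampd3* was not called without control replicate 1 (-0.79) or 4 (-0.65) or NOX4-deficient replicate 1 (-0.73). *Eef2k* kept an adjusted p under 0.05 in all 17 alternative fits but fell under the minimum fold change in 9, among them without control replicate 2 (0.49) or 4 (0.45) and without NOX4-deficient replicate 2 (0.45) or 4 (0.49). *Ampd2* was called in 7 of 17, and among the fits that left out a library only in the fit without NOX4-deficient replicate 4. The log2 fold change of *Ampd2* without the other libraries lay between 0.60 and 0.71 with adjusted p-values from 0.0730 to 0.119. The other 7 called genes of the lists were called in all 17.

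**Figure D5:**
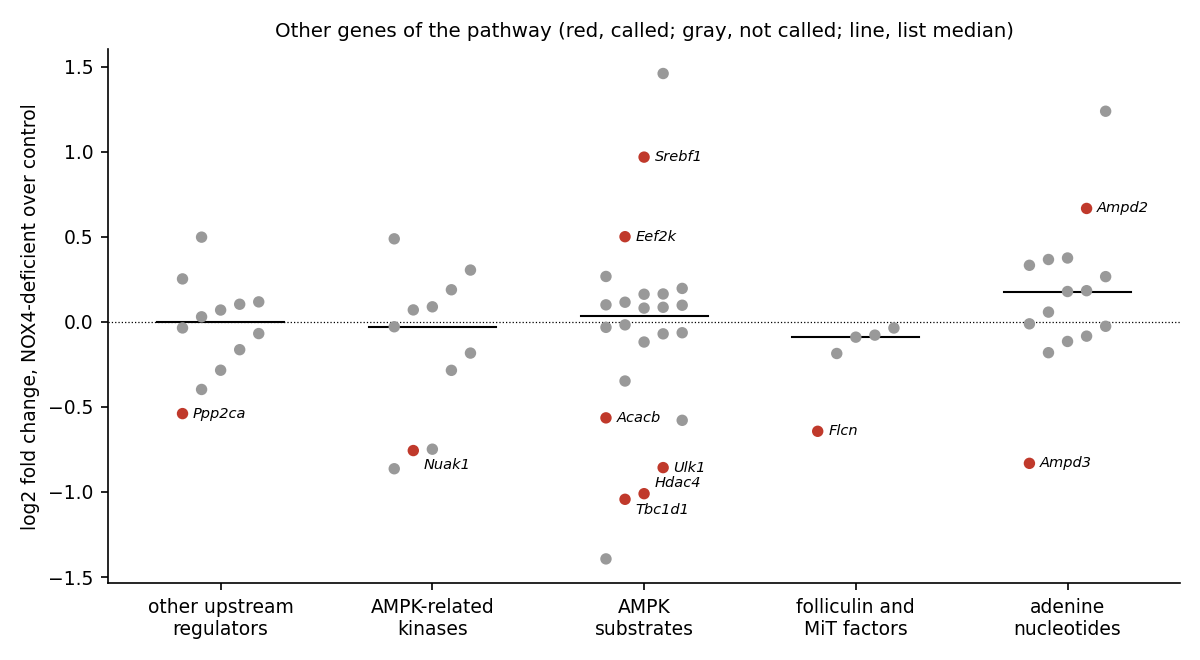
Log2 fold change, NOX4-deficient over control, of the 67 tested genes of the 5 lists, each point 1 gene, with the list median as a line. The 8 genes called lower lie between -1.04 and -0.54 and the 3 called higher between 0.50 and 0.97, and the list medians lie between -0.09 and 0.18.

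Among cell type markers that could accompany these values, the 11 fast-fiber genes had summed levels from 138801 to 168981 CPM in control and from 147709 to 175162 CPM in NOX4-deficient muscle, and the 8 slow-fiber genes from 332 to 724 CPM and from 428 to 1278 CPM, both with overlap. All 8 slow-fiber genes had positive log2 fold changes (median 0.64), with none called and edgeR adjusted p-values from 0.276 to 0.465. The fast-fiber genes had a median of 0.14, and *Myh4*, the myosin of type IIb fibers in which gamma3 is known to be most abundant, had 0.09 (edgeR adjusted p = 0.710). The part of fiber composition in the *Prkag3* result was not tested.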

How the data were processed

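Poly(A) RNA of gastrocnemius muscle was sequenced as unstranded paired-end libraries. The authors deposited raw read counts per gene from the nf-core RNA-seq pipeline, 1 column per mouse, without normalization. The submitters' processing notes name STAR and GRCm39. The annotation release and the counter's settings were not given in the sources used here. All 8 columns matched a sample by name, leaving 0 unmatched. The fit was made with edgeR 4.0.16 under R 4.3.3 (TMM, filterByExpr, estimateDisp, robust glmQLFit, glmQLFTest) on the 8 samples together, with a term for genotype alone and Benjamini-Hochberg adjustment over 12725 rows. Standard errors are the log2 fold change divided by the square root of F, and 95% intervals use edgeR's degrees of freedom. Calls needed an adjusted p under 0.05 and a log2 fold change beyond 0.5 in size, as in the study. CPM were scaled by TMM. Shares were compared by exact two-sided permutation tests over mice, adjusted over 5 shares. Exon lengths are exon unions of GENCODE release M21 (GRCm38), not the authors' annotation, and serve only for levels per kilobase. The scripts were tested on simulated data.

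The members and lists were chosen with earlier results of these data known. Of the listed genes, *Pfkfb2*, *Hprt*, *Hba-a2* and *Hbb-bt* matched no row by name, and *Cidea*, *Brsk2* and *Cd79a* did not pass the filter. Named are all members, *Nox4*, every called gene of the 5 pathway lists and the 5 genes nearest to each called member. Other list genes named with values or as calls of an alternative fit (*Stradb*, *Cab39l*, *Camkk2*, *Tab1*, *Sik1*, *Sik2*, *Sik3*, *Ppargc1a*, *Pfkfb3*, *Tfeb*, *Tfe3*, *Mitf*, *Ampd1*, *Ak1*, *Ak4*, *Foxo3* and *Myh4*) were chosen after their values were seen. *Hba-a1* and *Hbb-bs* are all the red blood cell markers that matched a row. Alternatives were DESeq2 1.42.0 size factors, library size only, no filter, a minimum of 10 counts per sample, a non-robust fit, DESeq2, pydeseq2 0.5.4, the replicate number as a block, other thresholds and each library left out. A term that split odd from even replicates and the length of the longest transcript were added after the data were seen.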

Additional observations from a re-analysis of the deposited data

Results flagged for a closer look

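Over the CPM of the 10 members, *Nox4* and the 11 called pathway genes and the 5 shares, 54 sets of 4 libraries were searched for a value whose gap to its nearest neighbor, divided by the group's range, exceeded Dixon's 95% critical value. There were 5 such groups, where chance gives about 1 in 20 groups, or 2.7. Control replicate 3 had the most *Prkab2* of the control mice (734 CPM, the others from 642 to 653; ratio 0.886). Control replicate 4 had the most *Cab39* (437 CPM, the others from 362 to 369; ratio 0.909). NOX4-deficient replicate 1 had the least *Nox4* (1.74 CPM, the others from 2.17 to 2.21; ratio 0.918). Control replicate 2 had the most *Flcn* (96.3 CPM, the others from 77.9 to 79.0; ratio 0.942). Control replicate 3 had the least *Nuak1* (33.8 CPM, the others from 43.5 to 44.8; ratio 0.877).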

How the results depend on the processing

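The 2 members called, *Prkag3* and *Strada*, were called under each of the 17 alternative fits. In the main fit *Prkag3*, 1 gene, also had an adjusted p under 0.01. *Strada* fell under 0.01 with DESeq2 (adjusted p = 0.00104), pydeseq2 (0.00122) and edgeR with the odd and even replicate term (0.00903). At the limit of 0.01 the main fit called 252 genes of the whole table and 6 of the pathway lists, against 784 and 11. When single libraries were left out, the count over the table ran from 499 (without control replicate 4) to 712, and that of the pathway lists from 7 (without control replicate 4) to 11. DESeq2 and pydeseq2 called 999 and 1009 genes of the table and each 15 pathway genes (4 higher and 11 lower). Among these 15 were *Pfkfb3*, *Ppargc1a*, *Ak4*, *Foxo3* and *Sik1* but not *Eef2k*. The non-robust fit called 13 pathway genes, with *Pfkfb3* and *Ppargc1a* added to the 11 of the main fit. With at least 10 counts in each sample the number was also 13, but there *Ak4* and *Tab1* were added. The sign of members with differences near 0 turned when a library was left out: *Prkaa2* (-0.0412) and *Prkab2* (-0.0577) without NOX4-deficient replicate 2, *Prkab2* (-0.00437) without NOX4-deficient replicate 4, and *Prkag2* (0.0010) without control replicate 4. Over the 8 such fits the log2 fold change ran from -0.04 to 0.18 for *Prkaa2*, from -0.06 to 0.11 for *Prkab2* and from -0.20 to 0.0010 for *Prkag2*. *Cab39* had an adjusted p of at least 0.05 in 4 fits, without control replicate 3 (0.0521) or 4 (0.0645) or NOX4-deficient replicate 1 (0.0612) or 3 (0.0712).

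Same-numbered replicates did not all deviate together from their group means (correlations across genes of 0.22, 0.15, 0.04 and 0.04 for numbers 1 to 4, and control replicates 2, 3 and 4 each correlated best with another number), so that the numbers were not taken as pairs. With the replicate number as a block, 933 genes of the table, 2 members and 10 pathway genes were called. An exact paired permutation of the shares, with the replicate number as the block, cannot give a p below 0.125, and it gave 0.125 for the alpha2 (0.646 percentage points), gamma1 (-4.93), gamma2 (-4.89) and gamma3 (9.82) shares. Over the fits that left out a library, the gamma2 difference ran from -5.80 to -4.26 percentage points, and its exact p was 0.0571 with any 1 NOX4-deficient replicate left out. Per kilobase of exon or of the longest transcript, and as log2 odds, the shares kept their direction and their side of the threshold. The counts of *Nox4*, *Prkab1*, *Strada* and *Prkag2*, from 29 to 316 per library, limit what can be seen for these genes.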
